A study of Ovis aries with 16 samples.

Results

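The bone morphogenetic protein (BMP) receptor pathway was followed in lung RNA of newborn lambs through 10 genes chosen by name: the receptors BMPR2, BMPR1A and ACVRL1, the co-receptor ENG, the ligands BMP4 and BMP7, the signal carriers SMAD1 and SMAD5, and the target genes ID1 and ID3. The platform's table paired 15 probe sets with exactly 1 of these symbols, and they covered 9 of the 10 genes. SMAD1 had no probe set under its own symbol and was not analysed here. The 15 probe sets were read from a table of 24016 probe sets, or 9155 genes with a symbol of their own. BMPR2 had 3 probe sets, BMPR1A, BMP7, SMAD5 and ID1 had 2 each, and ACVRL1, ENG, BMP4 and ID3 had 1 each. Probe sets of a gene were kept apart and are numbered from the brightest, so that probe set 1 has the highest mean signal.

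The tissue was peripheral lung of 16 sheep (Ovis aries), each 3 days old and born after an operation on the fetus. In 8 shunt lambs a graft 8.0 mm wide and 2 mm long joined the ascending aorta to the main pulmonary artery, so that aortic blood entered the lung circulation, and 8 control lambs had a sham operation. The operation fell 9 ± 6 days before term in both groups. Lambs are not described one by one in the labels. Arrays are treated as separate lambs, and should some come from the same animal, the p-values reflect variation among arrays alone. Levels are log2 values made by the authors with RMA, which subtracts background, evens out the arrays and combines the probes of each probe set. Sheep RNA was read with bovine probes, so a level cannot be set against that of another probe set as an amount of RNA, and signal over background is unknown. Percentiles, and the word dim, rank signal alone and not the amount of RNA.

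BMPs signal through complexes of type I and type II receptors on the cell surface. BMPR2 is a type II receptor, BMPR1A and ACVRL1 are type I receptors, and ENG (endoglin) is a co-receptor that presents ligand to ACVRL1 on endothelial cells. The activated type I receptor phosphorylates SMAD1, SMAD5 and SMAD9, which enter the nucleus with SMAD4 and switch on genes such as ID1 and ID3. In humans, inherited variants of BMPR2 are the best known genetic cause of pulmonary arterial hypertension, and variants of ENG and ACVRL1 cause hereditary haemorrhagic telangiectasia, which can be accompanied by pulmonary hypertension.

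Arrays resembled each other, with pairwise correlations of at least 0.980. Array medians were lower in shunt lambs, from 7.116 to 7.145, against 7.143 to 7.191 in control lambs (exact two-sided permutation p = 0.000777), a shift of -0.023 in the mean. Control replicate 2 stood apart, with the lowest mean correlation with the other arrays (0.983), and values without it are given beside BMPR2, BMP4 and ID3. It also gave the lowest control value of the endothelial (9.02) and smooth muscle (10.05) marker means, which were not tested without it. The surfactant genes SFTPC and SFTPB averaged 13.29 and 12.46 in shunt lambs and 13.44 and 12.69 in control lambs, at percentiles 99.7 and 99.0 of all probe sets. Both are markers of alveolar type 2 cells.

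No probe set of the pathway passed the test. By limma with Benjamini-Hochberg adjustment over all probe sets, 0 of 15 had an adjusted p under 0.05, where 17 of 24016 did (0.0708%). At an unadjusted p under 0.05 there were 4 of 15, compared with 13.7% of all probe sets. Of these, 2 were higher in shunt lambs (ENG and BMPR2 probe set 1; background 6.42%) and 2 were lower (both BMP7 probe sets; background 7.32%). For 0 of 15 were the 8 shunt and 8 control values free of overlap, as they were for 0.142% of all probe sets. The median difference of the 15 was -0.00052 on the log2 scale, and that of all probe sets was -0.01. The 95% intervals, which were not adjusted for the number of probe sets, reached from 0.12 to 0.49 on either side of the estimates. The 4 probe sets with an unadjusted p under 0.05 had intervals that left out 0, and none of them passed after adjustment. The intervals therefore do not give the smallest difference that the adjusted test could find, and larger differences could also be missed.

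**Figure D1:**
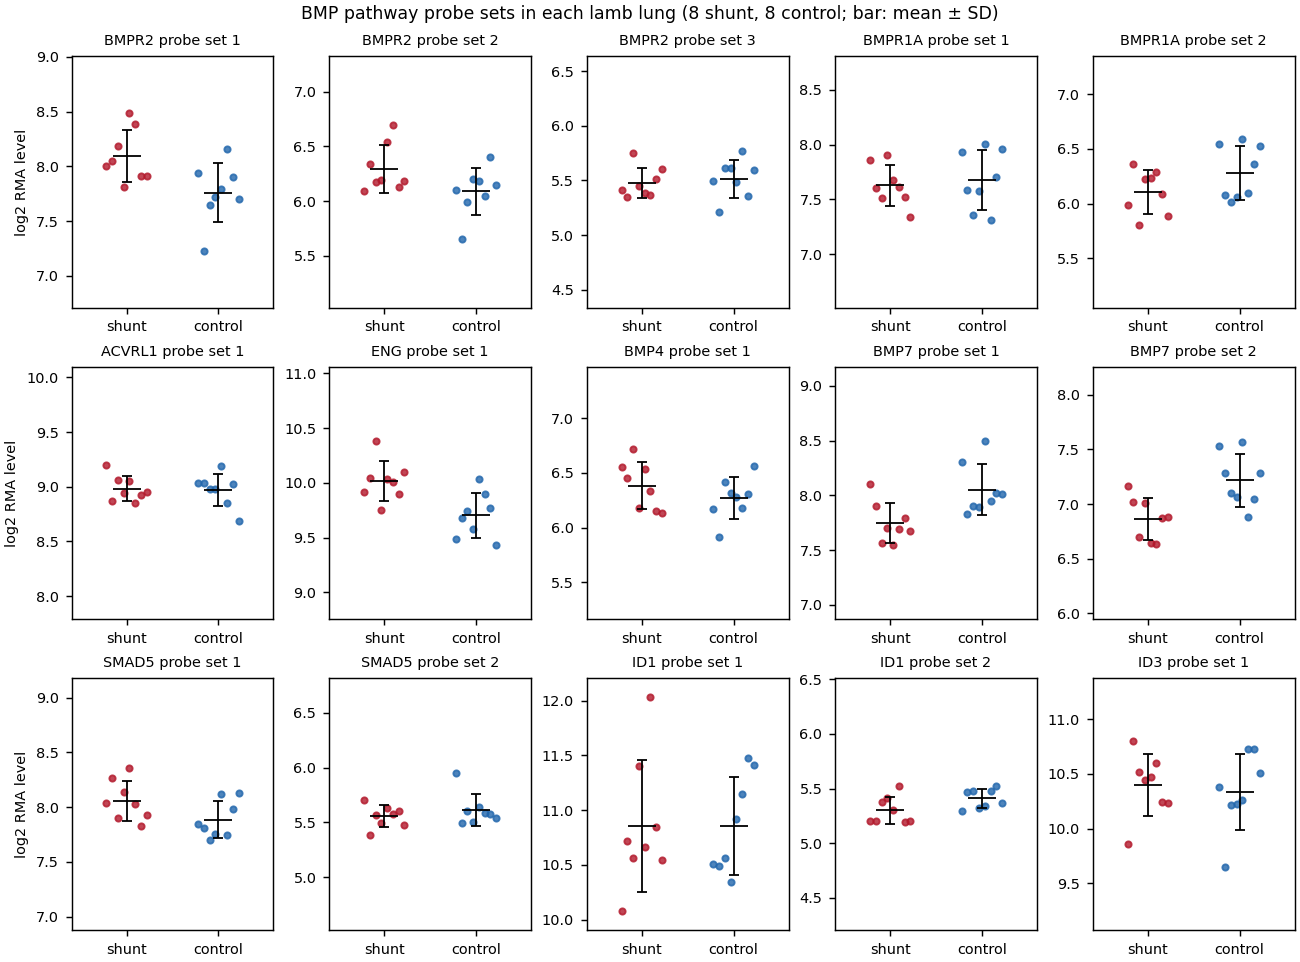
Log2 RMA level of each of the 15 probe sets (vertical axes, each spanning 2.3 log2 units around the data) in 8 shunt lambs (left) and 8 control lambs (right); each point is 1 lamb and bars are the mean ± SD. ENG and BMPR2 probe set 1 sit higher in most shunt lambs and both BMP7 probe sets lower, with overlap in every panel.

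ENG had the smallest unadjusted p of the receptors. Its level ran from 9.75 through a median of 10.02 to 10.39 in shunt lambs, and from 9.43 through 9.71 to 10.04 in control lambs. All 8 shunt lambs were above the control mean, with shunt replicate 3 the highest, and the groups overlapped through control replicates 5, 6 and 7. ENG averaged 10.02 ± 0.19 in shunt and 9.70 ± 0.20 in control lambs (SD, n = 8 each), a log2 difference of 0.32 ± 0.09 (SE), or 24.5% (95% interval 9.05% to 42.2%). It did not pass after adjustment (limma adjusted p = 0.200).

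The probe sets of BMPR2 gave different values. Probe set 1 ran from 7.81 through 8.03 to 8.49 in shunt lambs and from 7.22 through 7.75 to 8.16 in control lambs. All 8 shunt lambs lay above the control mean, shunt replicates 5 and 6 being the highest, and control replicate 2 was the lowest of all. The log2 difference was 0.33 ± 0.12, or 26.1% (95% interval 6.36% to 49.4%; limma adjusted p = 0.256), and it was 0.26 without control replicate 2. Probe set 2 had a difference of 0.20 ± 0.10 (95% interval -0.01 to 0.41; adjusted p = 0.379), with shunt levels from 6.09 to 6.69 and control levels from 5.66 to 6.40, and 0.14 without control replicate 2. Probe set 3, in the dim part of the arrays (percentile 20.05), had -0.04 ± 0.08 (95% interval -0.20 to 0.12), with levels from 5.35 to 5.75 in shunt and from 5.21 to 5.76 in control lambs, and -0.08 without control replicate 2.

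Probe sets 2 and 3 of BMPR2 share a source sequence by their names and carry different orientation letters (S and A). Probe set 1 carries the letter A, as probe set 3 does. The files used here do not state what the letters mean, and which strand each reads was not tested. Within an array, probe set 1 minus probe set 3 was 2.62 ± 0.30 in shunt and 2.24 ± 0.21 in control lambs (SD, n = 8 each), a gap of 0.37 ± 0.13 (SE; exact permutation p = 0.0104, adjusted p = 0.0625 over 6 such comparisons). Without control replicate 6 or 7, or shunt replicate 4 or 8, this gap did pass, with adjusted p of 0.0443, 0.0410, 0.0485 and 0.0410. In the other fits with 1 array left out it did not, with adjusted p up to 0.149 by the same test. With arrays paired by replicate number, exact permutation of signs gave an adjusted p of 0.141. For probe sets 1 and 2 the same gap was 0.13 ± 0.09 (exact permutation p = 0.155, adjusted p = 0.237), and 0.20 without control replicate 6 (adjusted p = 0.0443). It did not pass in the other fits with 1 array left out, with adjusted p up to 0.462 by the same test.

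The type I receptors showed smaller differences. BMPR1A, which is widely expressed, had levels from 7.34 through 7.60 to 7.91 in shunt lambs and from 7.31 through 7.65 to 8.01 in control lambs with probe set 1, so one range lay within the other. Its difference was -0.05 ± 0.11 (95% interval -0.27 to 0.17; limma adjusted p = 0.856). Probe set 2 of BMPR1A, from 5.80 to 6.36 in shunt and from 6.01 to 6.59 in control lambs, had -0.17 ± 0.10 (95% interval -0.39 to 0.04; adjusted p = 0.455). ACVRL1, the receptor partner of endoglin, ran from 8.85 through 8.95 to 9.20 in shunt and from 8.69 through 9.00 to 9.19 in control lambs. The group means were close, at 8.98 ± 0.11 and 8.97 ± 0.15 (SD, n = 8 each), with a difference of 0.01 ± 0.07 (adjusted p = 0.955) and a 95% interval from -8.55% to 11.1%.

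**Figure D2:**
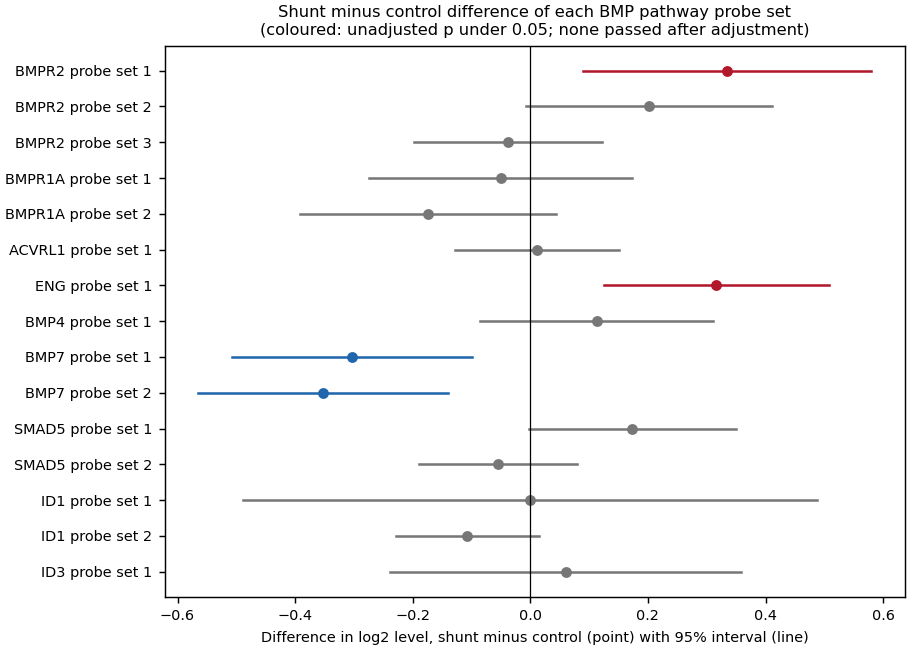
Shunt minus control difference in log2 level (horizontal axis; points) with 95% intervals from limma (lines) for each of the 15 probe sets (vertical axis). Red marks the 2 higher and blue the 2 lower probe sets with an unadjusted p under 0.05, and none passed after adjustment.

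Of the ligands, BMP7, a secreted protein that counteracts TGF-beta in several tissues, had lower levels in shunt lambs with both probe sets, without passing the test. Probe set 1 ran from 7.54 through 7.70 to 8.11 in shunt lambs and from 7.83 through 7.98 to 8.50 in control lambs. Of the shunt lambs, 7 were below the control mean, the exception being shunt replicate 1, and 6 were below the lowest control. The difference was -0.30 ± 0.10 (SE), or -19.0% (95% interval -29.6% to -6.65%; limma adjusted p = 0.226). Probe set 2 ran from 6.64 through 6.88 to 7.16 in shunt lambs and from 6.88 through 7.19 to 7.56 in control lambs, with 8 of 8 shunt lambs below the control mean. Its difference was -0.35 ± 0.10, or -21.7% (95% interval -32.4% to -9.30%; adjusted p = 0.198). The gap between the probe sets was 0.88 ± 0.11 in shunt and 0.83 ± 0.16 in control lambs (SD, n = 8 each; exact permutation p = 0.492, adjusted p = 0.590).

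BMP4, a ligand of early lung budding and of vessel wall cells, was represented by 1 probe set in the lower range of the arrays (percentile 34.0). It ran from 6.13 through 6.40 to 6.71 in shunt lambs and from 5.92 through 6.29 to 6.56 in control lambs. The ranges overlapped over most of their length, and the difference was 0.11 ± 0.09 (95% interval -0.09 to 0.31; limma adjusted p = 0.603). It was 0.06 without control replicate 2 and 0.07 without shunt replicate 3.

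SMAD5 carries the BMP signal to the nucleus. Its probe set 1 ran from 7.83 through 8.03 to 8.36 in shunt lambs and from 7.70 through 7.83 to 8.13 in control lambs, with 7 of 8 shunt lambs above the control mean and a difference of 0.17 ± 0.08 (limma adjusted p = 0.368). Probe set 2 was dim (percentile 21.4), from 5.39 to 5.71 in shunt and from 5.49 to 5.95 in control lambs, and had -0.06 ± 0.06 (adjusted p = 0.711), and -0.0075 without control replicate 1. The gap between them was 2.50 ± 0.22 in shunt and 2.28 ± 0.22 in control lambs (SD, n = 8 each; exact permutation p = 0.0597, adjusted p = 0.179).

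The ID genes encode proteins that block the binding of other transcription factors to DNA, and they rise soon after BMP stimulation of endothelial and smooth muscle cells. ID1 probe set 1 had the widest spread of the 15, from 10.08 through 10.69 to 12.04 in shunt lambs and from 10.34 through 10.74 to 11.48 in control lambs. Shunt replicate 1 was the lowest and shunt replicate 6 the highest of all lambs, so the control range lay inside the shunt range. The means were 10.86 ± 0.60 in shunt and 10.86 ± 0.45 in control lambs (SD, n = 8 each), and the 95% interval of the difference reached from -28.7% to 40.2% (limma adjusted p = 0.999). Probe set 2 of ID1 was dim (percentile 18.1), from 5.19 to 5.52 in shunt and from 5.29 to 5.52 in control lambs, and had -0.11 ± 0.06 (adjusted p = 0.416).

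ID3 ran from 9.86 through 10.46 to 10.80 in shunt lambs and from 9.65 through 10.32 to 10.73 in control lambs. The ranges nearly coincided, with shunt replicate 1 and control replicate 2 the lowest of their groups. The difference was 0.06 ± 0.14 (95% interval -0.24 to 0.36; limma adjusted p = 0.872), and -0.04 without control replicate 2.

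The lambs of a group varied together in some genes. Deviations from the group mean were correlated over the 16 arrays for 12 pairs of probe sets, with p-values from permutation within groups. ID1 and ID3 varied together, with Pearson's r = 0.60 (permutation p = 0.0145, adjusted p = 0.0349) and Spearman's rho = 0.71 (permutation p = 0.00394, adjusted p = 0.0236). Their r was 0.53 within shunt and 0.72 within control lambs, and 0.56 without the 2 arrays of most extreme ID1.

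Probe sets of a gene also varied together for BMP7 (r = 0.79, permutation p = 0.00058, adjusted p = 0.00696; rho = 0.63, permutation p = 0.0151, adjusted p = 0.0452), and without the 2 most extreme arrays r was 0.66. BMPR2 probe sets 1 and 2 did so with r = 0.73 (permutation p = 0.00342, adjusted p = 0.0155) and rho = 0.65 (permutation p = 0.00833, adjusted p = 0.0333), and r was 0.75 without the 2 most extreme arrays. BMPR1A probe sets had r = 0.74 (permutation p = 0.00387, adjusted p = 0.0155) and rho = 0.80 (permutation p = 0.00091, adjusted p = 0.0109), and r was 0.68 without 2 arrays. Within groups, r of the BMPR1A probe sets was 0.39 in shunt and 0.93 in control lambs. The ID1 probe sets had r = 0.67 (permutation p = 0.00885, adjusted p = 0.0265) and rho = 0.58 (permutation p = 0.0204, adjusted p = 0.0489). Their r fell to 0.38 without the 2 most extreme arrays, and rho was not computed without them.

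Other pairs did not pass. BMPR2 probe set 3 had r = 0.29 with probe set 1 (permutation p = 0.300, adjusted p = 0.449; rho = 0.0059, permutation p = 0.987, adjusted p = 0.987) and r = -0.07 with probe set 2 (permutation p = 0.793, adjusted p = 0.872; rho = -0.26, permutation p = 0.331, adjusted p = 0.465). The SMAD5 probe sets had r = -0.07 (permutation p = 0.799, adjusted p = 0.872) and rho = -0.01 (permutation p = 0.970, adjusted p = 0.987). BMPR2 with ENG had r = 0.31 (permutation p = 0.264, adjusted p = 0.449) and rho = 0.34 (permutation p = 0.218, adjusted p = 0.409). ENG with ACVRL1 had r = 0.38 (permutation p = 0.168, adjusted p = 0.336) and rho = 0.32 (permutation p = 0.238, adjusted p = 0.409). BMPR2 with BMPR1A had r = -0.05 (permutation p = 0.873, adjusted p = 0.873) and rho = 0.03 (permutation p = 0.912, adjusted p = 0.987), and ENG with PECAM1 had r = 0.22 (permutation p = 0.439, adjusted p = 0.585) and rho = 0.26 (permutation p = 0.348, adjusted p = 0.465).

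**Figure D3:**
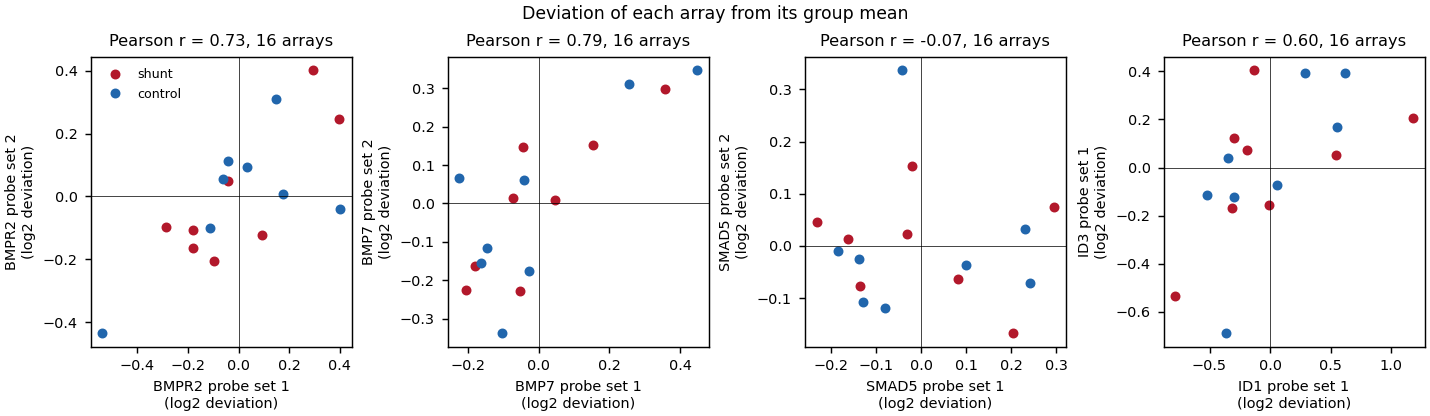
Deviation of each array from its group mean (log2 units, both axes) for 4 pairs of probe sets; red points are shunt lambs and blue points control lambs. BMPR2 probe sets 1 and 2 (r = 0.73), BMP7 probe sets 1 and 2 (r = 0.79) and ID1 with ID3 (r = 0.60) rise along a diagonal, and the SMAD5 probe sets (r = -0.07) do not.

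Over all probe sets of other genes with 1 symbol, the genes whose deviations followed those of ENG most closely over the 16 arrays were the kinase gene MAPK3 (r = 0.80), C5H12orf57 (r = 0.79) and the biotinidase gene BTD (r = 0.78). For BMPR2 probe set 1 they were ACTR10 (r = 0.88), RHOQ (r = 0.85) and TM4SF18 (r = 0.84), and for ID1 probe set 1 DDX5 (r = 0.90), RND1 (r = 0.88) and SFPQ (r = 0.86). ACTR10 encodes a dynactin subunit, RHOQ and RND1 small GTPases, DDX5 an RNA helicase and SFPQ a splicing factor. Each set is the highest of 13291, 13289 and 13290 probe sets for ENG, BMPR2 and ID1, so no p is given.

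ENG and ACVRL1 are endothelial genes. With the brightest probe set of each gene, 10 of the 13 measured endothelial markers had a positive and 3 a negative shunt minus control difference. By the same count, 4109 of all 9155 genes had a positive one. None of the 13 was past the threshold with its brightest probe set, and the differences were 0.32 for ENG and 0.01 for ACVRL1. The mean level of the 13 measured endothelial markers of 16 listed ran from 9.18 to 9.42 in shunt and from 9.02 to 9.26 in control lambs (exact permutation p = 0.00575, adjusted p = 0.0517 over 9 marker means), a difference of 0.13, and their summed log2 level ran from 119.3 to 122.5 in shunt and from 117.2 to 120.4 in control lambs. PECAM1, an adhesion molecule of endothelial cells, rose by 0.35 ± 0.06 with probe set 2 (limma adjusted p = 0.0384) and was 0.28 ± 0.05 higher with probe set 1 (adjusted p = 0.0609). SOX18, an endothelial transcription factor, was at 0.58 ± 0.17 (adjusted p = 0.198), and the angiopoietin receptor TEK at 0.20 ± 0.07 (adjusted p = 0.245). The 3 lower markers were VWF (-0.11), CLDN5 (-0.11) and EGFL7 (-0.06), named after their values were seen. Further probe sets of KDR (-0.09), ERG (-0.08), FLT1 (-0.07 and -0.11) and VWF (0.04) had the sign opposite to the brightest one. Those of EMCN (0.32) and CDH5 (0.13), like that of PECAM1, had the same sign. In whole lung, more cells of a type and more RNA per cell cannot be told apart.

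Set against the endothelial marker mean within each array, ENG was 0.75 ± 0.13 in shunt and 0.56 ± 0.20 in control lambs (SD, n = 8 each), a difference of 0.19 ± 0.08 (SE; exact permutation p = 0.0460, adjusted p = 0.230 over 5 genes). ACVRL1 on the same measure had -0.12 ± 0.08 (exact permutation p = 0.145, adjusted p = 0.241), BMPR2 0.20 ± 0.11 (exact permutation p = 0.0998, adjusted p = 0.241), ID1 -0.13 ± 0.27 (exact permutation p = 0.630, adjusted p = 0.635) and ID3 -0.07 ± 0.15 (exact permutation p = 0.635, adjusted p = 0.635). None of the 5 passed, and the part of the endothelial markers in the ENG difference was not otherwise tested.

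Of the means of other cells' markers, none passed after adjustment over the 9, and 4 had an unadjusted p under 0.05, each with an adjusted p of 0.0573. Smooth muscle markers (9 of 10 measured) ran from 10.28 to 10.58 in shunt and from 10.05 to 10.53 in control lambs (exact permutation p = 0.0267), and their summed log2 level from 92.5 to 95.2 in shunt and from 90.4 to 94.8 in control lambs. Alveolar type 2 markers (7 of 8) ran from 10.40 to 10.82 in shunt and from 10.61 to 10.94 in control lambs (exact permutation p = 0.0154), with sums from 72.8 to 75.7 in shunt and from 74.3 to 76.6 in control lambs. Type 1 markers (6 of 7) ran from 10.97 to 11.24 in shunt and from 10.94 to 11.41 in control lambs (exact permutation p = 0.0197), with sums from 65.8 to 67.4 in shunt and from 65.7 to 68.4 in control lambs. Airway markers (5 of 8) ran from 6.83 to 7.42 in shunt and from 7.01 to 7.87 in control lambs (exact permutation p = 0.0319), with sums from 34.1 to 37.1 in shunt and from 35.1 to 39.4 in control lambs. With the brightest probe set of each gene, single markers went both ways for smooth muscle (7 higher, 2 lower) and type 1 cells (1 higher, 5 lower). Among all 9155 genes, 4109 were higher. The means of the epithelial markers lay lower in shunt lambs, as BMP7 did, and the part of these markers in the BMP7 difference was not tested.

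The means of fibroblast (difference 0.05), macrophage (-0.08), lymphocyte (-0.05) and erythroid markers (0.17) had exact permutation p of 0.733, 0.542, 0.261 and 0.487.

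**Figure D4:**
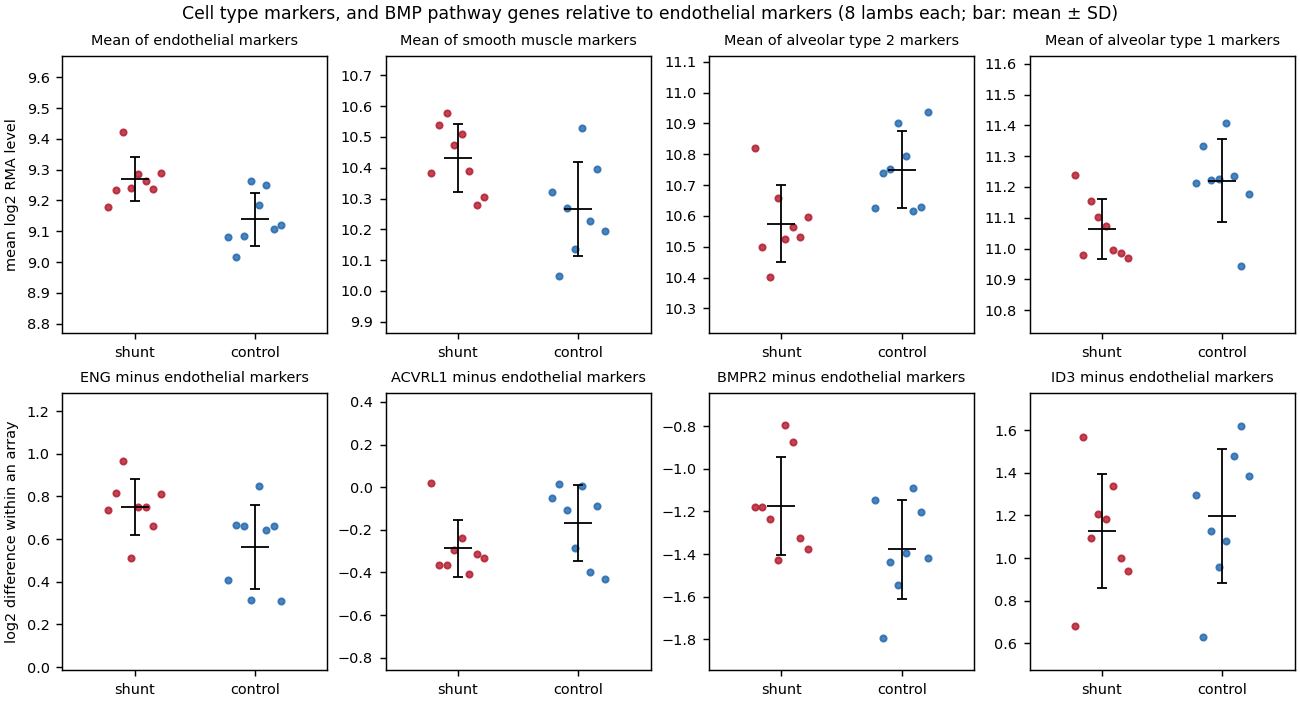
Top, mean log2 level of the markers of 4 cell types in each lamb; bottom, log2 level of ENG, ACVRL1, BMPR2 and ID3 (probe set 1) minus the endothelial marker mean of the same array. Points are lambs, 8 shunt (left) and 8 control (right), bars are the mean ± SD, and axes do not start at 0. The means of endothelial and smooth muscle markers sit higher and those of alveolar markers lower in shunt lambs, with overlap and none past an adjusted p of 0.05.

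Other genes of the pathway were taken from 6 lists with 81 genes, of which 34 were measured. By limma with adjustment over all probe sets, 0 of their 52 probe sets passed. With the brightest probe set of each gene, 4 of 34 were higher and 3 lower in shunt lambs at an unadjusted p under 0.05, against 6.74% higher and 7.92% lower among all genes. The median of the 34 differences was -0.03, and that of all genes was -0.01.

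Secreted or membrane-bound antagonists of BMPs held the genes with the smallest p. At an unadjusted p under 0.05, 2 of the 8 measured were higher (all genes 6.74%) and 2 lower (all genes 7.92%), SOST being the second of the lower ones (-0.19 ± 0.08). Probe set 2 of SOST had -0.05. HTRA1, a secreted protease that binds ligands of the TGF-beta family, was 12.12 ± 0.26 in shunt and 11.73 ± 0.10 in control lambs (SD, n = 8 each), a difference of 0.39 ± 0.09 (limma adjusted p = 0.115). CRIM1, a membrane protein that binds BMP4 and BMP7, was 11.54 ± 0.24 in shunt and 11.22 ± 0.08 in control lambs, a difference of 0.33 ± 0.08 (adjusted p = 0.152), and its other 3 probe sets had 0.35, 0.17 and 0.20. BAMBI, a decoy receptor without a kinase domain that is itself induced by BMPs, was 9.94 ± 0.25 in shunt and 10.24 ± 0.28 in control lambs, a difference of -0.30 ± 0.12 (adjusted p = 0.301).

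Among 7 other ligands, 1 difference was above 0 and 6 were below it, where 5046 of all 9155 genes were below 0. GDF7 alone had an unadjusted p under 0.05, on the lower side (all genes 7.92%). GDF7 had -0.13 ± 0.05 (limma adjusted p = 0.318), GDF5 -0.08 ± 0.05 (adjusted p = 0.530) and BMP2, a ligand of vessel wall cells, -0.16 ± 0.17 (adjusted p = 0.686). Of 4 other receptors, 0 had an unadjusted p under 0.05 (all genes 6.74% higher and 7.92% lower). The type I receptor ACVR1 was at 0.13 ± 0.08 (adjusted p = 0.505), and its probe set 2 at 0.01. The type II receptors ACVR2B and ACVR2A were at -0.14 ± 0.12 (adjusted p = 0.608) and -0.03 ± 0.08 (adjusted p = 0.894). Of 3 SMAD partners and regulators, SMAD4, the shared partner of the BMP and TGF-beta SMADs, was at 0.12 ± 0.06 (adjusted p = 0.365). The SMAD phosphatases CTDSP1 and PPM1A were at -0.12 ± 0.07 (adjusted p = 0.466) and -0.00011 ± 0.07 (adjusted p = 0.999).

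Of 7 other target genes, CXCL12 was higher and BAMBI lower at an unadjusted p under 0.05 with the brightest probe set (all genes 6.74% higher and 7.92% lower). ID2, named after its values were seen, had -0.18 ± 0.10 (limma adjusted p = 0.434). Its probe set 2 had -0.22 ± 0.09 (adjusted p = 0.309) and was also under an unadjusted p of 0.05. CXCL12, a chemokine of endothelial and stromal cells, was 8.46 ± 0.21 in shunt and 8.08 ± 0.40 in control lambs (SD, n = 8 each), a difference of 0.38 ± 0.14 (limma adjusted p = 0.273), and APLN was at -0.12 ± 0.07 (adjusted p = 0.424). Of 8 other genes tied to heritable pulmonary hypertension in humans, the water channel gene AQP1 stood at 0.33 ± 0.10 (adjusted p = 0.219), its other probe sets at 0.38 and -0.03, and GGCX, the vitamin K-dependent carboxylase, at -0.09 ± 0.06 (adjusted p = 0.530).

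**Figure D5:**
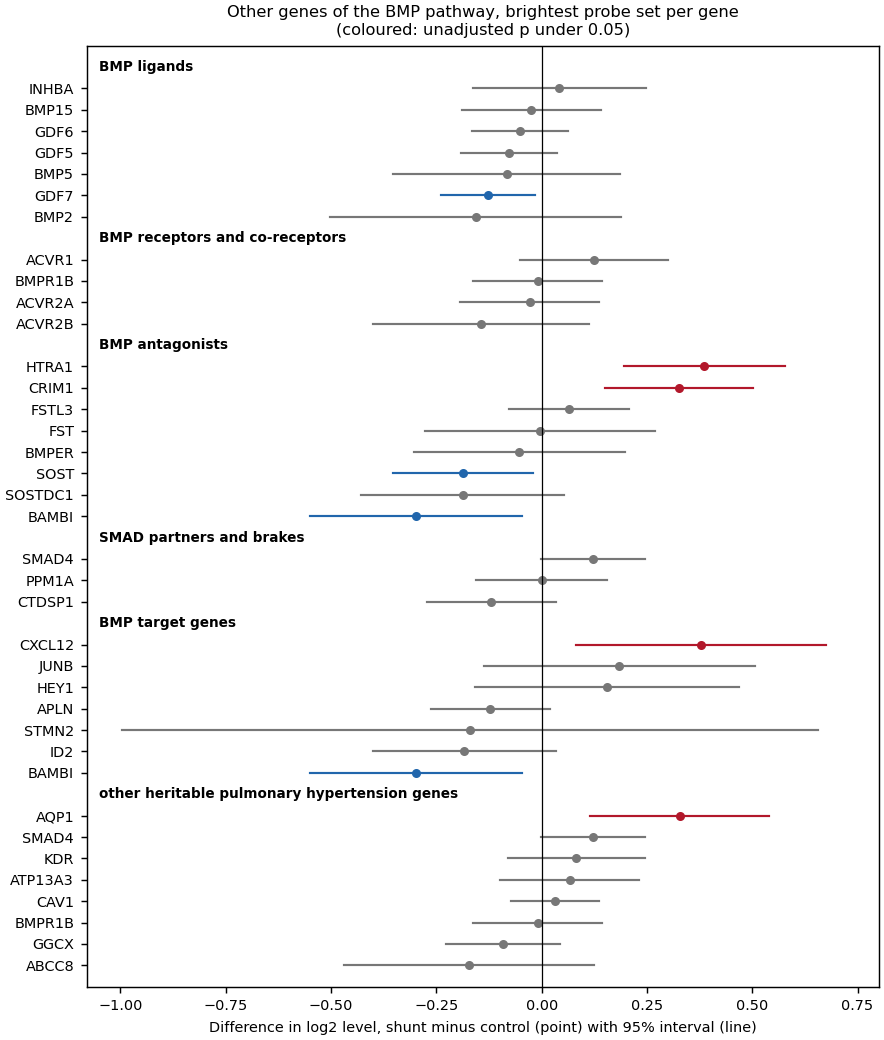
Shunt minus control difference in log2 level (horizontal axis; points) with 95% intervals from limma (lines) for the other measured genes of 6 pathway lists (vertical axis), brightest probe set per gene; genes on more than 1 list appear in each. Red and blue mark higher and lower genes with an unadjusted p under 0.05, led by HTRA1 (0.39), CXCL12 (0.38) and AQP1 (0.33) on the higher side and BAMBI (-0.30) on the lower.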

How the data were processed

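The deposited values are log2 RMA levels, 1 for each probe set on each array, as the submitters' processing notes name that method. Its version is not given. RNA came from lung homogenate, with labelled cRNA from 1 ug of total RNA per the labels' protocols. From 24128 probe sets, 112 manufacturer controls were left out. Symbols came from the platform annotation, and 9 of the 9 measured pathway genes were also found in a sheep gene table (RefSeq); positions and sequences were not used here. The shunt and control arrays were tested by limma (3.58.1, R 4.3.3; lmFit, eBayes, no covariate, two-sided, Benjamini-Hochberg over 24016 probe sets, threshold 0.05) and single values with exact two-sided permutation over 12870 divisions of the lambs. Correlations used 100000 permutations in numpy 2.4.6, and plots matplotlib 3.10.9 in Python 3.11.15. The number of arrays limits precision. Scan dates and batches were unknown and not tested.

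The pathway genes and the lists were chosen with earlier results of these data known. The text names every pathway probe set, the up to 3 genes of smallest p of each list discussed, or those past the threshold, and the 3 genes most like ENG, BMPR2 and ID1. SOST and ID2 are named besides. Of marker lists, only endothelial genes are named with differences. The fit and the permutation were tested on simulated data. The alternatives were a replicate block, further normalizations, a filter on dim probe sets (lowest 25%), other variance models, the XIST level as covariate, a threshold of 0.10 and each array left out in turn.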

Additional observations from a re-analysis of the deposited data

Results flagged for a closer look

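Single arrays far from the rest of their group, by the gap to the nearest array over the range of the 8, were found in 3 of 50 sets of values (15 probe sets, 9 marker means and the array median in both groups), where chance gives about 2.5. SMAD5 probe set 2 was 5.95 in control replicate 1, against 5.49 to 5.64 in the other controls (ratio 0.667). The endothelial marker mean was 9.42 in shunt replicate 3, against 9.18 to 9.29 in the other shunt lambs (ratio 0.545), and this lamb also had the highest ENG. The macrophage marker mean was 9.02 in control replicate 2, against 9.63 to 9.86 in the other controls (ratio 0.729).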

How the results depend on the processing

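Over 25 alternatives 0 of the 15 pathway probe sets and 0 of the listed genes' probe sets passed, and the smallest adjusted p of a pathway probe set was 0.0986, for BMP7 probe set 2 without shunt replicate 1 (-0.40). With 1 array left out, ENG ran from 0.26 to 0.36, BMPR2 probe set 1 from 0.26 to 0.39 and the BMP7 probe sets from -0.35 to -0.24 and from -0.40 to -0.30. Of the 15 probe sets, 12 kept their sign throughout. ACVRL1 turned to -0.010 after quantile normalization again and -0.00028 after cyclic loess, and ran from -0.029 to 0.043 with 1 array left out. ID1 probe set 1 turned to 0.023 with each array centred on its median, 0.019 with array weights and 0.0022 with the XIST level as covariate, and ran from -0.17 to 0.11 with 1 array left out; ID3 ran from -0.038 to 0.14. The cause was not tested. The gap between BMPR2 probe sets 1 and 2 ran from 0.10 to 0.20, that between 1 and 3 from 0.30 to 0.42, and that of ID1 from -0.031 to 0.20. The count of all probe sets past the threshold, 17 (16 higher), was 0 with the replicate block, 10 (9 higher) after quantile normalization again, 26 (25 higher) with centred arrays, 45 (36 higher) with array weights, 55 (44 higher) at a threshold of 0.10, and 6 (without control replicate 5 or shunt replicate 3, 5 or 8) to 75 (53 higher, without shunt replicate 1) with 1 array left out. Whether replicate numbers pair the samples is unknown. Deviations of same-numbered arrays correlated from -0.26 to 0.22, 2 of 8 over 0.1, and 0 of 8 shunt arrays correlated best with their own number. Weak correlations over all probe sets cannot exclude a pairing. With the replicate block the smallest adjusted p of the pathway was 0.233. The 3 probe sets in the dimmest 25% gave no value under that filter, and signal over background is unknown.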
